A study of Homo sapiens with 4 samples.

Results

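The vacuolar ATPase and the factors that build it were followed through 2 lists of USF1 binding sites from Huh7 cells. The set holds 32 genes chosen by name, of 20033 protein-coding genes in the RefSeq table. It comprises 10 genes for the membrane sector V0, 13 for the cytosolic sector V1, 2 accessory subunits and 7 assembly factors. A peak was given to a gene when its centre lay inside the gene or within 1 kb of it on GRCh38.

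Huh7 is a human liver cancer line. The design text states that USF1 was overexpressed in these cells, and the protocols name an antibody to FLAG, or IgG, for the precipitation. The 4 libraries are 2 USF1 immunoprecipitates (IP 1 and IP 2) and 2 inputs, and the labels give the same line for all of them and name no other condition. List 1 holds the peaks of IP 1 against input 1, and list 2 those of IP 2 against input 2. The labels number the replicates without saying whether they are separate cultures, and libraries from cells without the overexpressed protein were not analysed here. RNA was not analysed here either, so the cell type was not checked against its markers.

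The vacuolar ATPase is a rotary proton pump. V1 hydrolyses ATP in the cytosol and turns a rotor that passes protons through V0 into lysosomes, endosomes and secretory vesicles. Dedicated factors assemble V0 in the endoplasmic reticulum, and others rejoin V1 with V0 at the target membrane. USF1 is a bHLH-ZIP factor that binds the E-box CACGTG. The same word lies in promoter elements through which MiT/TFE factors act on lysosomal genes.

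The IP libraries kept 47165647 (IP 1) and 43942638 (IP 2) tags, and the lists hold 14300 and 27325 peaks. For each peak the authors give the IP tags in it and the fold, which sets the tags at the summit against those expected from input and local background. They also give a false discovery rate (FDR) from peaks called with IP and input swapped. All these values of single peaks are the authors' own. The median peak had 44 tags and a fold of 5.83 in list 1, and 49 tags and a fold of 5.60 in list 2. The lists differ in FDR: 1.92% of list 1 peaks and 30.8% of list 2 peaks were at 5% or less, and 64.3% of list 1 peaks were at 100%. With 2 lists, both values are given in place of a mean. Intervals on tags are exact Poisson intervals at 95% that cover counting error only. They are not scaled for library depth or peak width.

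Promoter sequence could be read for part of the set. RefSeq promoter windows of GRCh38.p14, from 250 bases before to 50 after a gene's start, matched 25 of the 32 members. ATP6V1H, ATP6V0E1 and ATP6V1C1, which had strong peaks, are among the 7 without a window. The stretches printed here are the 100 bases before the start, on the gene's strand, with CACGTG in capitals. The first 3 belong to subunit genes with a strong peak in both lists, and the fourth, of AMDHD2, is the start under the peak at the far end of ATP6V0C. The fifth belongs to a tissue-limited isoform with a peak in list 2. The last pair are members with a list 2 peak and no CACGTG in the window.
ATP6V0B (chr1:43974860-43974959, + strand): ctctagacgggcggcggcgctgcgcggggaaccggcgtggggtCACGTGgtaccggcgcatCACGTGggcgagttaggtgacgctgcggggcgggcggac
ATP6V0D1 (chr16:67481158-67481257, - strand): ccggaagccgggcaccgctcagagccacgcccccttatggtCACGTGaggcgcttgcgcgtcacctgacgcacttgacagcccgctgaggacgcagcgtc
ATP6V1G1 (chr9:114587669-114587768, + strand): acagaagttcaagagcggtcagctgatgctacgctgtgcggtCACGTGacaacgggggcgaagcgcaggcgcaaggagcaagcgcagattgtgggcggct
AMDHD2 (chr16:2520271-2520370, + strand): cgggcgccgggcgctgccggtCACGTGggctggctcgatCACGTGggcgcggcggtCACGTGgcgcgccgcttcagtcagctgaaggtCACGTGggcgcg
ATP6V0E2 (chr7:149872864-149872963, + strand): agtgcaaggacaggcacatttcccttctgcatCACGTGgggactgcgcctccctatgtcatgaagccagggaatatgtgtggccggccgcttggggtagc
ATP6AP2 (chrX:40580870-40580969, + strand): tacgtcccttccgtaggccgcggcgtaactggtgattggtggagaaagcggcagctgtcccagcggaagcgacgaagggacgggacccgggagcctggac
ATP6V1F (chr7:128862756-128862855, + strand): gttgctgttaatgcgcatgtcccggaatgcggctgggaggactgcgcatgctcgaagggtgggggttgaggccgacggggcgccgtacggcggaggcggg

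The word CACGTG begins 57 bases before the start of ATP6V0B, 59 before that of ATP6V0D1 and 58 before that of ATP6V1G1. ATP6V0B has another copy 39 bases before the start, and ATP6V0E2 has its copy 68 bases before. Each of these words lies in TCACGTG on 1 strand or the other. AMDHD2 carries 4 copies, which begin 79, 61, 44 and 12 bases before its start. CCDC115 is the remaining member with the word, 236 and 18 bases before its start.

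CACGTG, which reads the same on both strands, was found in 5 of the 25 member windows (20%), against 8.82% of 15842 protein-coding windows of the same length. TCACGTG, searched on both strands and containing CACGTG, was in the same number of member windows and in 4.78% of all. The loose form CANNTG, which also matches CACGTG, was in 20 of the 25 (80%) and in 64.6% of all. Among all protein-coding promoters that hold CACGTG, 12.7% have it beginning 50 to 70 bases before the start, a range chosen after the members' positions were seen.

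Peak summits lay on or beside these words. At ATP6V0B the list 1 summit was 1.5 bp from the middle of the word 57 bases before the start. The list 2 summit was 0.5 bp from the other copy, 39 bases before. Each summit was farther from the remaining copy, at 19.5 bp in list 1 and 18.5 bp in list 2. The ATP6V0D1 summits were 3.5 and 8.5 bp from the word, and those of ATP6V1G1 1.5 and 7.5 bp. At AMDHD2 the nearest of the 4 copies was 10.5 and 4.5 bp from the summits, and at ATP6V0E2 the list 2 summit was 0.5 bp away. Over the 606 protein-coding genes with a shared peak at the start and CACGTG in a start window, the median distance was 22.5 bp in list 1 and 19.5 bp in list 2. Those 606 genes include peaks of any fold, while the distances above are all from peaks of 8-fold or more. This is therefore not a comparison at like strength. At CCDC115 the nearer word was 70.5 bp from the list 2 summit.

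Stronger shared peaks at gene starts held the word more often across the genome. It was present for 14.2% of 809 genes whose lower fold of the 2 lists was under 5, and for 34.2% of 711 with a lower fold from 5 to under 8. The share was 74.5% of 278 genes from 8 to under 16, and 91.1% of 45 genes at 16 or more. Of the 6 members with a promoter window and a shared peak at the start, the 3 with a lower fold of 8 or more hold CACGTG, and TCIRG1, ATP6V1E1 and DMXL1, all below 5, do not. A match is a description of the sequence and not a measured contact.

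The share of members with a peak was above that of protein-coding genes in each list. In list 1, 13 of 32 had a peak (40.6%, against 25.9% of protein-coding genes), and in list 2, 23 had one (71.9%, against 47.0%). A peak was called shared when a list 1 and a list 2 peak of the same gene overlapped by at least 1 bp. Shared peaks were found at 11 members (34.4%, against 16.8%). A further 11 had a peak in list 2 alone (25.6% of protein-coding genes), and WDR7 was the only member with a peak in list 1 alone (4.48%). A peak in each list was found at 12 members (37.5%, against 21.4%), and those of CCDC115 alone did not overlap. The 8 remaining members had none (25%, against 48.5%).

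Strong peaks and peaks at gene starts gave further counts. At a fold of 8 or more, 6 members had a list 1 peak (18.8%, against 5.33% of protein-coding genes) and 9 a list 2 peak (28.1%, against 9.67%). The same 6 members had a shared peak that reached this fold in each list (18.8%, against 3.28%). At an FDR of 5% or less, 5 members had a list 1 peak (15.6%, against 1.33%) and 16 a list 2 peak (50%, against 25.9%). The shared peak passed this FDR in each list at 5 members (15.6%, against 1.30%). Within 1 kb of the gene start, 9 members had a shared peak (28.1%, against 10.8%), of which 5 passed the fold (15.6%, against 1.96%) and 4 the FDR (12.5%, against 1.05%). With peak centres inside the gene only, 6 members had a list 1 peak (18.8%), which is close to the 17.9% of protein-coding genes. On that rule 17 had a list 2 peak (53.1%, against 35.7%) and 5 a shared one (15.6%, against 9.08%). For the 7 members without a strand in the tables used, either end of the gene was allowed. Members had a median length of 27706 bp and all protein-coding genes one of 24130 bp. These genes were chosen with results of these data known, so the counts are descriptions and no test of the set was made.

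**Figure D1:**
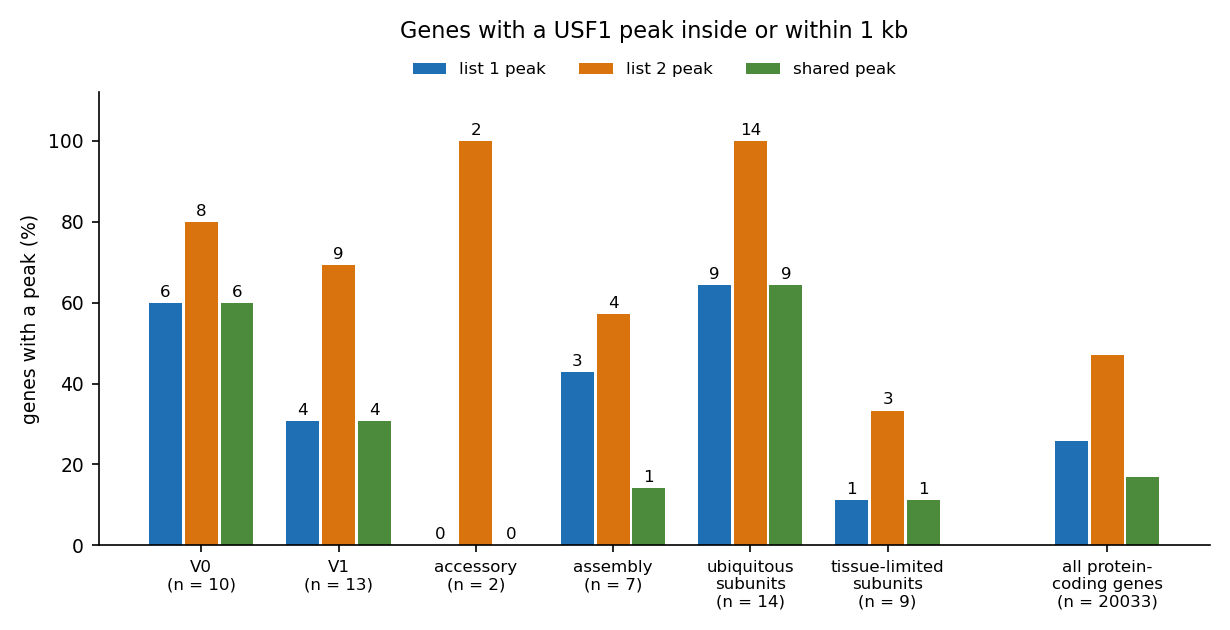
Share of genes (%) with a USF1 peak inside them or within 1 kb, for list 1, list 2 and shared peaks, by class of vacuolar ATPase gene and for all 20033 protein-coding genes; digits above the bars of the vacuolar ATPase classes are counts of genes. All 14 ubiquitous subunit genes had a list 2 peak, against 3 of the 9 tissue-limited ones.

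Peaks were counted apart for ubiquitous and tissue-limited subunit genes. Of the 14 genes that encode a subunit's only or broadly expressed form, all 14 had a list 2 peak and 9 had a shared peak (64.3%), against 47.0% and 16.8% of protein-coding genes. Of the 9 isoforms known mainly from kidney, osteoclasts, brain or testis, 3 had a list 2 peak (33.3%) and 1, TCIRG1, had a shared one (11.1%), both somewhat under those shares. The difference between the classes was not tested. The 6 members at 8-fold or more in both lists were all ubiquitous forms, with that of ATP6V0C at the far end of the gene. Within 1 kb of the gene start, 7 ubiquitous genes had a shared peak (50%, against 10.8% of protein-coding genes). Of these, 5 reached that fold in both lists (35.7%, against 1.96%). For tissue-limited genes these counts were 1 (11.1%) and 0. ATP6V0A4, ATP6V0D2, ATP6V1B1, ATP6V1E2, ATP6V1G2 and ATP6V1G3, all tissue-limited, had no peak in either list.

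The tissue-limited forms are set here beside the ubiquitous form of the same subunit. ATP6V0D1 had 16.67-fold and 23.59-fold peaks, and the nearest peak to ATP6V0D2, its kidney and osteoclast counterpart, lay 57984.5 bp from it in list 1 and 57920.5 bp from it in list 2. ATP6V1G1 had 9.23-fold and 19.89-fold, and ATP6V1G3, a kidney form, had none within 218955 bp. ATP6V1C1 reached 21.60-fold in list 2, and ATP6V1C2 had 6.02-fold, 18531 bp inside the gene. ATP6V1B2 had 4.17-fold in list 2, and the nearest list 2 peak to ATP6V1B1 was 35138.5 bp from it. ATP6V0E2 had an 8.23-fold list 2 peak at its start and no list 1 peak, beside the 13.11-fold and 14.52-fold peaks of ATP6V0E1. The forms of the large membrane subunit a did not all follow this order. TCIRG1 had a shared peak at its start, where ATP6V0A1 had none and ATP6V0A2 had a list 2 peak alone, while the nearest peak to ATP6V0A4 was 28963 bp from it. The peak centre nearest to ATP6V1E2, a testis form, was 1407.5 bp outside the gene in list 2 with a fold of 4.02. It was the closest of those beyond the 1 kb limit, and the farthest centre within it was the list 1 peak of CCDC115, 420.5 bp outside.

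For ATP6V1G2, a brain form in the major histocompatibility region, the lists used here give no information. Neither list held a peak between positions 28490418 and 33589491 of chromosome 6, a stretch of 5.1 Mb with 173 protein-coding genes. On that chromosome 1 gap between neighbouring peaks was longer, and the median gap over both lists was 43.5 kb. The headers name files of uniquely mapped reads. The cause of the gap was not tested. Without ATP6V1G2, 3 of 8 tissue-limited genes had a list 2 peak (37.5%, against 47.0%) and 1 had a shared peak (12.5%, against 16.8%). No peak in either list was found for 5 (62.5%, against 48.5% of protein-coding genes).

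**Figure D2:**
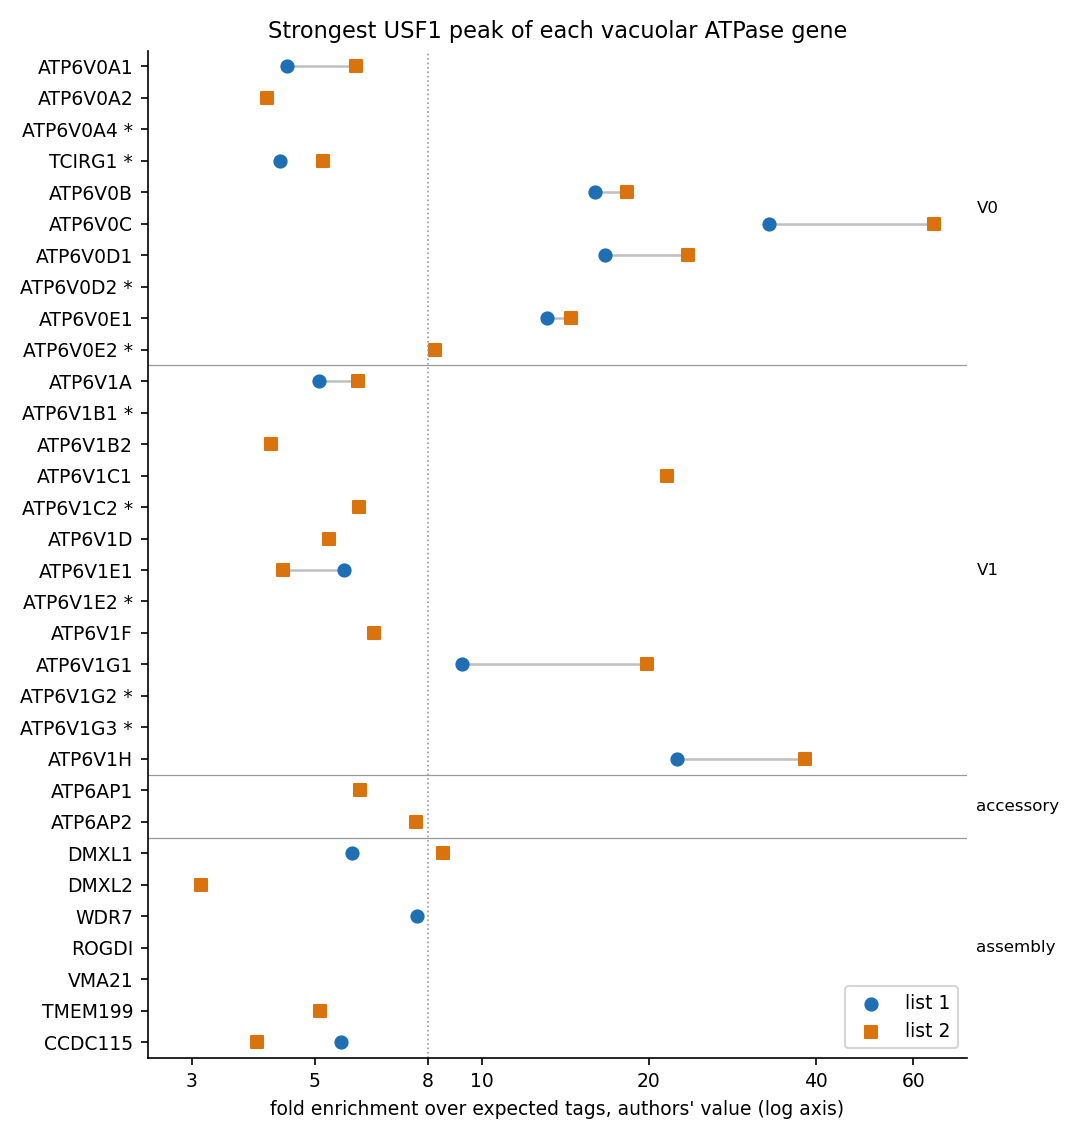
Fold over expected tags (log axis) of the strongest peak of each member in list 1 (circles) and list 2 (squares), by class. Lines join peaks that overlap, asterisks mark tissue-limited isoforms, the dotted line is 8-fold and a row without a symbol has no peak. ATP6V0C, ATP6V1H, ATP6V0D1, ATP6V0B, ATP6V0E1 and ATP6V1G1 lie above the dotted line in both lists. The ATP6V0C peak is at the far end of the gene.

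Within V0, 6 of 10 genes had a shared peak (60%, against 16.8% of protein-coding genes) and 4 were at 8-fold or more in both lists (40%, against 3.28%). The proton-carrying ring is made from ATP6V0C and ATP6V0B. ATP6V0B, which encodes a ring subunit, had a peak at chr1:43974200-43975666 in list 1 with 198 tags (171 to 228) and at chr1:43974041-43976075 in list 2 with 251 tags (221 to 284). Its folds were 16.00 and 18.25, with an FDR of 0 in both. The tag intervals overlap, and by fold the peak ranked 115 of 14300 and 184 of 27325.

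The peak counted for ATP6V0C, the other ring gene, lay at the far end of the gene. It spanned chr16:2519879-2520892 in list 1, with 282 tags (250 to 317), and chr16:2518772-2521328 in list 2, with 461 tags (419.9 to 505). The tag intervals of the lists do not overlap here. Folds were 32.99 and 65.37, the sixth highest value (rank 6) of list 1 and the highest (rank 1) of list 2. The summits lie just before the start of AMDHD2, an enzyme of amino sugar breakdown, and the list 1 centre was 6659.5 bp from the start of ATP6V0C. The start of ATP6V0C itself carried a list 2 peak with 146 tags and 13.99-fold (FDR 0.18%), and no list 1 peak. Its summit was 24.5 bp from the word CATGTG, a form of CANNTG that begins 28 bases before another RefSeq start of the gene.

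ATP6V0D1, which couples the ring to the central rotor, had 255 tags (225 to 288) and 279 tags (247 to 314). Its folds of 16.67 and 23.59 ranked 88 in list 1 and 77 in list 2. ATP6V0E1, a small membrane subunit, had 217 tags (189 to 248) at 13.11-fold and 242 tags (212 to 274) at 14.52-fold. For both genes the tag intervals of the lists overlap. FDRs were 0 in both lists for ATP6V0D1, and 0.9% and 0 for ATP6V0E1.

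The genes of the large membrane subunit a, which steers the pump to its compartment, had weaker peaks. ATP6V0A1 had a shared peak of 4.45-fold (45 tags, FDR 100%) and 5.94-fold (47 tags, FDR 19.68%), 61305.5 bp downstream of its start in list 1. ATP6V0A2 had a list 2 peak at the start with 78 tags and 4.11-fold. TCIRG1, the osteoclast form, had 64 tags at 4.33-fold (FDR 100%) and 87 tags at 3.28-fold (FDR 16.97%) at its start, with a second list 2 peak of 5.17-fold (FDR 1.32%) 11484 bp inside. The start peak of TCIRG1 ranked 12401 of 14300 and 26623 of 27325 by fold, so it was among the weakest calls of either list. ATP6V0E2, a form enriched in brain, had a list 2 peak of 99 tags and 8.23-fold (FDR 1.39%).

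Within V1, 9 of 13 genes had a list 2 peak (69.2%, against 47.0% of protein-coding genes) and 4 a shared one (30.8%, against 16.8%). ATP6V1H, a regulatory subunit that controls ATP hydrolysis, had the strongest peak of this sector. It spanned chr8:53842605-53843722 in list 1 with 155 tags (132 to 181) and chr8:53842511-53843839 in list 2 with 194 tags (168 to 223). Folds of 22.50 and 38.25 ranked 24 and 14, and the summits of the lists were 4 bp apart. ATP6V1G1, part of the peripheral stalks, had 114 tags (94 to 137) at 9.23-fold with an FDR of 14.74% in list 1, and 141 tags (119 to 166) at 19.89-fold with an FDR of 0 in list 2.

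The other shared V1 peaks were near or below the median fold of their lists. ATP6V1A, the catalytic subunit, had 159 tags at 5.10-fold (FDR 22.43%) and 227 tags at 5.98-fold (FDR 0.1%). Its peaks were among the widest of the set, at 1988 and 3168 bp, and NAA50, an N-terminal acetyltransferase gene, also lies within 1 kb. ATP6V1E1, a stalk subunit whose neighbour within 1 kb is BCL2L13, had 44 tags at 5.65-fold (FDR 95.15%) and 68 tags at 4.38-fold (FDR 13.75%).

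The remaining ubiquitous V1 genes were called in list 2 alone. ATP6V1C1, which joins the stalks to V0, had 107 tags (87.7 to 129) and 21.60-fold at chr8:103020563-103021643, with an FDR of 0 and rank 98 by fold. The nearest list 1 peak was 3426.5 bp outside the gene and had a fold of 5.90. ATP6V1B2, the nucleotide-binding partner of the catalytic subunit, had 150 tags at 4.17-fold (FDR 4.2%). The rotor genes ATP6V1F and ATP6V1D had 89 tags at 6.40-fold (FDR 2.3%) and 38 tags at 5.31-fold (FDR 7.87%). List 1 gives no value where no peak was called, so the size of these differences between the lists is not known.

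Both accessory genes had a peak at the start in list 2 (against 28.8% of protein-coding genes) and none in list 1. A list 2 peak without a list 1 peak was found at 25.6% of protein-coding genes, and 2 genes are too few to set apart from these shares. ATP6AP2, also known as the prorenin receptor, had 128 tags at 7.62-fold (FDR 0.12%), with its summit 382 bp outside the gene. ATP6AP1, which helps to assemble V0, had 36 tags at 6.03-fold (FDR 19%). The nearest list 1 peaks were 5308 bp from ATP6AP2 and 42585.5 bp from ATP6AP1.

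Of the 7 assembly genes, 1 had a shared peak (14.3%), which is near the 16.8% of protein-coding genes. This gene was DMXL1, and its shared peaks stayed under 8-fold. DMXL1, DMXL2, WDR7 and ROGDI belong to the complex that rejoins V1 and V0. DMXL1 had a peak at its start with 106 tags at 3.51-fold (FDR 100%) and 136 tags at 4.33-fold (FDR 0.75%), and the summits were 673 bp apart. Another shared peak inside the gene had 5.83-fold and 5.71-fold, with summits 10 bp apart, and a list 2 peak inside the gene that had no list 1 partner reached 8.50-fold with 40 tags. DMXL2 had 93 tags at 3.12-fold (FDR 8.27%) in list 2, which ranked 26958 of 27325 by fold.

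WDR7 was called in list 1, with 60 tags at 7.65-fold (FDR 26.81%) at the start. ROGDI had no peak, and the nearest centres were 45126.5 bp (list 1) and 30145 bp (list 2) from it. VMA21, TMEM199 and CCDC115 act in the assembly of V0 in the endoplasmic reticulum, and RefSeq lists the latter pair as VMA12 and VMA22. TMEM199 had 87 tags at 5.12-fold (FDR 0.73%) in list 2, at an end that POLDIP2 shares. CCDC115 had 89 tags at 3.94-fold (FDR 2.29%) in list 2 at its start, next to IMP4, and a separate list 1 peak of 5.57-fold (FDR 100%) at its other end, next to the tRNA gene TRE-TTC1-1. VMA21 had no peak within 264936 bp.

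Most peaks sat at gene starts, and the strong ones there that were found in both lists had a like position. Of the 32 members, 21 had a list 2 peak within 1 kb of the start (65.6%, against 28.8%), and 10 a list 1 peak there (31.2%, against 14.2%). At the 5 members with a shared start peak of 8-fold or more (ATP6V0B, ATP6V0D1, ATP6V0E1, ATP6V1G1 and ATP6V1H), all summits lay 32 to 63 bp outside the gene. In list 1 they lay at 56, 60, 43, 57 and 61 bp and in list 2 at 36, 48, 32, 63 and 57 bp, in that order. The weaker pair of ATP6V1A lay in the same range, at 67 and 44 bp. Both summits lay 30 to 70 bp outside at 41 of 393 protein-coding genes with such a strong peak (10.4%), a range chosen after the members' values were seen. The median summit of those 393 genes was 57 bp outside in list 1 and 58 bp in list 2. DMXL1, TCIRG1 and ATP6V1E1, with weaker peaks, had summits on either side of the start. Strong start peaks called in list 2 without a list 1 partner were too few to compare in spread. Their summits lay 16 bp outside ATP6V1C1 (21.60-fold), 65 bp outside ATP6V0E2 (8.23-fold) and 176 bp inside ATP6V0C (13.99-fold). The ATP6V0C distance is from the outer end of the gene. Another RefSeq start of ATP6V0C lies 226 bp inside that end, and its summit is outside that start.

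**Figure D3:**
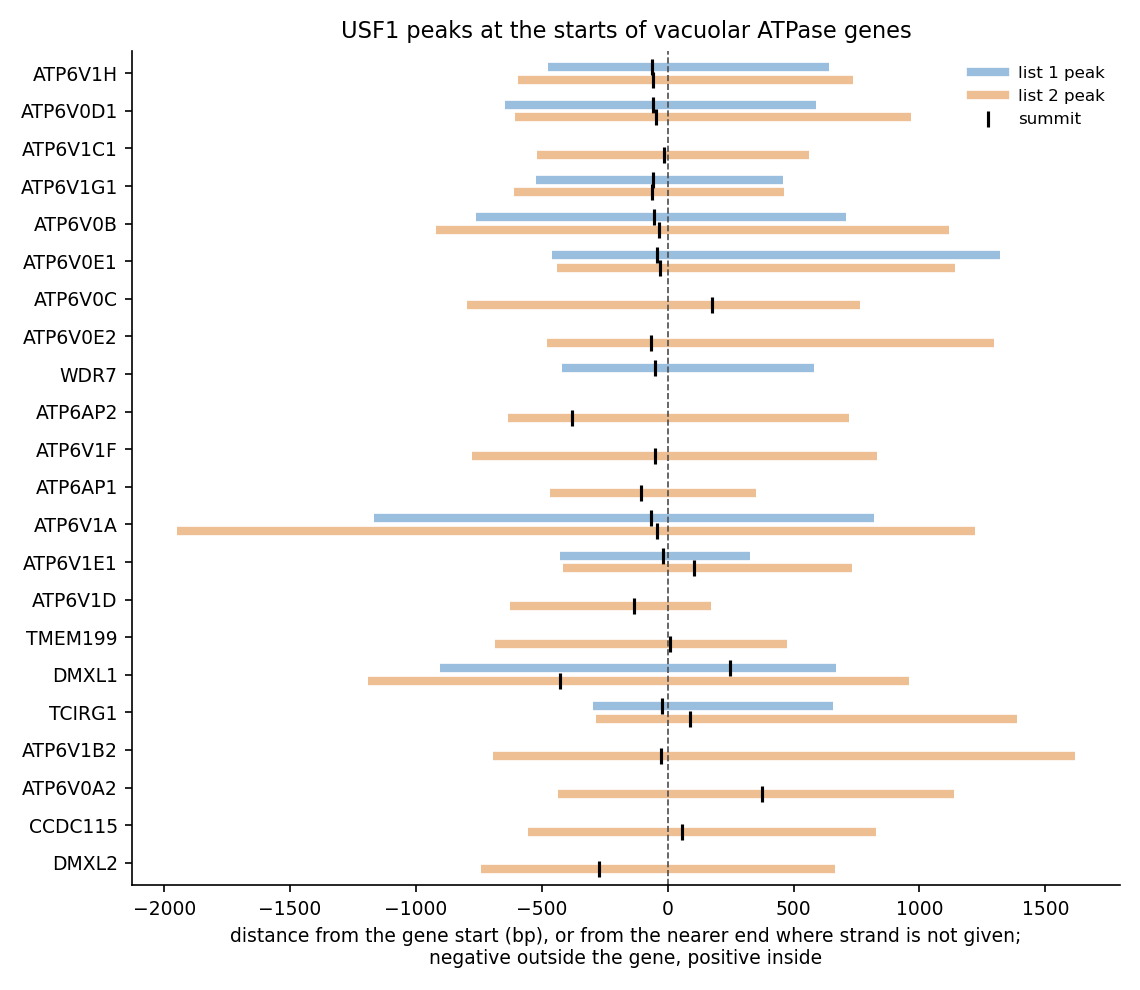
Span (bars) and summit (ticks) of each list 1 and list 2 peak at a member's start, or at its nearer end where strand is not given, in bp from that end, ordered by fold. Summits of ATP6V1H, ATP6V0D1, ATP6V1G1, ATP6V0B and ATP6V0E1 lie 32 to 63 bp outside the gene in both lists.

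The lists ranked the members' shared peaks alike. Across the 12 shared peak pairs of the 11 members, Spearman's rho was 0.99 for tags and 0.92 for fold, against 0.80 and 0.57 over all 5377 shared pairs. These are descriptions across peaks called from the same libraries. The members' pairs are few and had higher median folds (7.53 and 10.25, against 6.37 and 7.03). The rho values are therefore not a like comparison of agreement. Scaled to kept tags, list 2 exceeded list 1 in all 12 pairs, by a median of 1.35 times (lowest 1.12 at ATP6V0A1, highest 1.75 at ATP6V0C). Over all 5377 shared pairs, list 2 was higher in 3855, and the median was 1.2 times. Fold was higher in list 2 in 9 of the 12 pairs (75%, against 62.7% of all shared pairs). ATP6V1E1, TCIRG1 and the inner peak of DMXL1 went the other way.

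Widths bear on these tag counts. The ATP6V0C peak was 1014 bp wide in list 1 and 2557 bp in list 2, and its density fell from 278 to 180.3 tags per kb while its total was higher. ATP6V1H differed less, at 1118 and 1329 bp and 139 and 146 tags per kb. Summits of the 2 lists were a median of 17.5 bp apart for members and 38 bp over all shared pairs. The share within 100 bp went the other way, at 8 of 12 member pairs (66.7%) and 75.2% of all shared pairs. The 4 member pairs farther apart were those of ATP6V0A1, TCIRG1, ATP6V1E1 and the start of DMXL1.

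**Figure D4:**
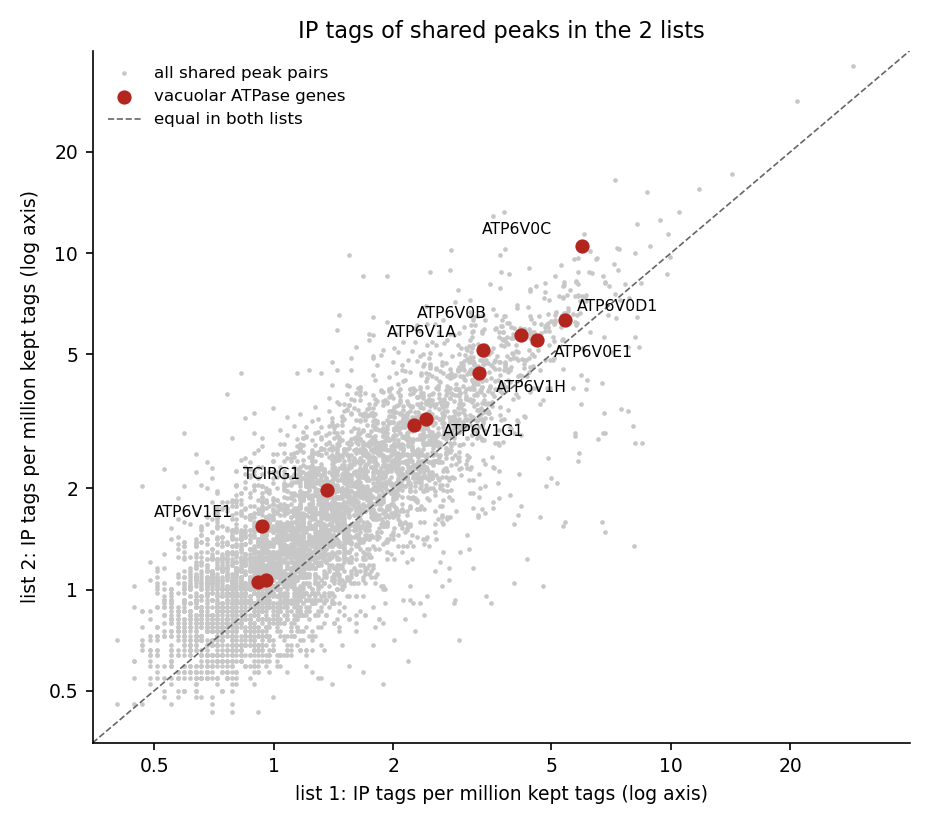
IP tags per 1000000 kept tags in list 1 and list 2 (log axes) for the 12 shared peak pairs of members (large points) and all 5377 shared pairs (small points), with the line of equal values. All 12 member pairs lie above the line, by 1.12 to 1.75 times. Of all shared pairs, 3855 lie above it.

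Genes that work with the pump were counted in the same way from a list of 29. Shared peaks were found at 11 of them (37.9%, against 16.8% of protein-coding genes), including 6 of 12 genes for ion transport in acidic organelles and 3 of 6 for the Ragulator complex and SLC38A9. The strongest were CLCN7 (34.25-fold and 52.26-fold), whose chloride-proton exchange supports acidification, and the lysosomal cation channel MCOLN1 (25.96-fold and 40.65-fold). CLCN6, a late endosomal exchanger, had 18.93-fold and 41.08-fold. RNASEK, a small protein associated with the pump, had 11.28-fold and 21.30-fold. The Ragulator genes LAMTOR4 (9.78-fold and 10.07-fold) and LAMTOR1 (8.72-fold and 14.46-fold) followed. None of the 5 TLDc genes, whose products bind the pump, had a shared peak, a group too small to set apart from the 16.8%. A list 2 peak was found at 4 of these 5 (80%, against 47.0% of protein-coding genes). Of the MiT/TFE factor genes listed, TFEB and TFE3 had list 2 peaks alone. That of TFE3 lay at its start (6.23-fold, FDR 0.73%), and those of TFEB lay inside the gene. MITF had a shared peak of 6.92-fold (FDR 100%) and 8.67-fold (FDR 11.19%), 61027 bp inside this long gene in list 1. The start of MITF had a 3.20-fold list 2 peak alone.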

How the data were processed

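USF1 binding was measured by ChIP-seq in 4 libraries of Huh7 cells. Peaks were called by the authors with MACS 1.4.2 for each IP against the input of the same number, at a p cutoff of 1e-05 and at most 1 tag per position, per the file headers. Bowtie2, deepTools, HOMER and GRCh38 are named per the submitters' processing notes, without roles. The deposited tag count is not scaled to library size, and scaled tags are tags per 1000000 IP tags kept after filtering. The deposited fold is a ratio to the expected tags, the deposited FDR is a percent, and the deposited score comes from the caller's p, as its log10 multiplied by minus 10, and was not used in a result. The other deposited columns are width and summit offset in bp. A summit position is the start plus the offset minus 1.

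Genes came from RefSeq (GRCh38.p14), and all 32 members matched, TMEM199 and CCDC115 by older symbols. Strand came from the promoter windows, which 15842 of 20033 protein-coding genes have. ATP6V0D2, ATP6V0E1, ATP6V1A, ATP6V1B2, ATP6V1C1, ATP6V1E2 and ATP6V1H have none there. Where a gene has several windows, motif counts use the start nearest the gene's end. Peaks without a mapped gene were kept for the lists' medians. Members, classes and gene lists were chosen with earlier results of these data known. Every member with peaks in both lists is described, members with peaks in 1 list are named with their strongest, and partner genes are the 6 of highest lower fold. The TLDc and MiT/TFE remarks were chosen after the values were seen. The rules for assigning and sharing peaks were tested on simulated data with 600 genes. Versions were Python 3.11.15, numpy 2.4.6, pandas 2.3.3, scipy 1.17.1 and matplotlib 3.10.9. No test was made between the lists or on the set. Alternatives were other distances, summits, stricter thresholds, other overlap rules and each list alone.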

Additional observations from a re-analysis of the deposited data

How the results depend on the processing

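A gene without a peak may hold binding under the caller's threshold, and a list gives no value there. Of 61 alternative values, 38 were within 1.5 times the reported count. Shares of all protein-coding genes under the same setting follow each count. Members with a list 1 peak numbered 6 with centres inside the gene only (18.8%, against 17.9%, so the excess over other genes was lost), 6 at a fold of at least 8 (against 5.33%) and 5 at an FDR of at most 5% (against 1.33%). Members with a list 2 peak numbered 9 at that fold (against 9.67%). Members with a shared peak numbered 5 with centres inside the gene (15.6%, against 9.08%), 6 at that fold (against 3.28%) and 5 at that FDR (against 1.30%), and 13 to 23 with either list alone (against 25.9% to 47.0%). At gene starts they numbered 5 at that fold (against 1.96%) and 4 at that FDR (against 1.05%), and 10 to 21 with either list alone (against 14.2% to 28.8%). For shared peaks of the smaller groups, the shares of all genes are those just given. Ubiquitous subunits numbered 3 with centres inside the gene (21.4%) and 5 at that FDR, and 9 to 14 with either list alone. The tissue-limited count of 1 became 0 at that fold, at that FDR, with summits within 100 bp (against 12.1%) and with TCIRG1 moved to the ubiquitous class, and was 1 to 3 with either list alone. Partner genes numbered 4 with centres inside the gene (13.8%), 7 at that fold and 4 at that FDR, and 15 to 24 with either list alone. Centres inside the gene lose peaks just upstream of starts. Without the peak at AMDHD2, 10 members had a shared peak and 12 a list 1 peak. That alternative, the move of TCIRG1 and the count without ATP6V1G2 were chosen after seeing the data. No paired analysis was possible because the results are counts of genes that come from no test. Input of the same number already enters the p, the fold and the FDR of each peak.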
